A study of Homo sapiens with 60 samples.

Results

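Cells of HCC2935, an established EGFR-mutant non-small cell lung cancer line, were compared after 10 days without osimertinib (long washout, 3 libraries) with drug-tolerant persister cells (DTPs, 3 libraries) that had been harvested straight from the drug. Both groups had received 500 nM osimertinib, an inhibitor of the EGFR kinase, for 21 days, and the long washout cells were then rinsed and given medium without drug. These 6 libraries were chosen by cell line and treatment from the 60 libraries of the series. Values beside them come from 9 further HCC2935 libraries, 3 each of a 24 h washout after the same 21 days (short washout), of parental cells kept 21 days without drug and then given DMSO for 24 h, and of such cells given 500 nM osimertinib for 24 h (acute). The labels describe biological triplicates. They also state that the long washout ended when exponential growth had resumed, so that regrowth itself set the time of harvest. No drug-free culture carried for as long as the long washout cells is named, and HCC2935 is 1 line. RNA was sequenced as polyadenylated transcripts in paired-end reads.

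Persister cells survive a kinase inhibitor in a slowly cycling or arrested state without a resistance mutation and can return to growth once the drug is gone. EGFR signals through the RAS-ERK cascade, which induces cyclin D and the negative regulators of its own pathway. Cyclin-dependent kinases then release E2F factors from RB, E2F targets build the replication machinery for S phase, and a later wave of genes read through the DREAM and MuvB complexes, B-MYB and FOXM1 carries cells through mitosis. In cells that leave the cycle, DREAM holds both sets of genes silent, while FOXO factors and CDK inhibitors favour arrest.

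The 6 libraries held 20.8 to 25.6 M estimated counts (median 23.5 M), and the 15 HCC2935 libraries 18.6 to 25.6 M. Epithelial markers were present as the label implies, with 8 of 8 at 1 TPM (the authors' length-scaled unit) or more in each of the 6 libraries. Of 14 alveolar lineage genes found, 7 reached 1 TPM in each library and 4 stayed under it in all. Fibroblast markers reached 1 TPM in each library for 1 of 7 genes, with summed levels of 44.5 to 84.6 TPM in DTPs and 59.6 to 136 TPM after long washout. Endothelial markers did so for 1 of 5, with sums of 14.9 to 18.3 and 18.5 to 22.6 TPM. Of 6 leukocyte markers, 4 stayed under 1 TPM in all libraries, and the summed level, which was mainly CD68, went from 12.4 to 14.4 TPM in DTPs to 30.1 to 51.3 TPM after long washout. The part of other cells in the results below was not tested. In bulk RNA, fewer cells of a type and less RNA per cell cannot be told apart, so a rise of a cycle gene may be more cycling cells or more transcript in each.

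Libraries differed within both groups. Long washout replicate 1 lay closest to the DTPs, at a median root mean square distance of 0.397 (log2 scale) from the 3 DTP libraries against 0.480 for replicate 2 and 0.522 for replicate 3. Distances within the groups ran from 0.333 to 0.373 among DTPs and from 0.340 to 0.387 after long washout. Long washout replicate 1 was nearer to DTP replicate 3 (0.334) than to long washout replicates 2 (0.387) and 3 (0.374). DTP replicates 1 and 2 were farther from it, at 0.411 and 0.397. From short washout replicates 1 to 3 it lay at 0.346, 0.370 and 0.353. DTP replicate 3 had the highest level of mitotic genes among the DTPs. List counts are therefore given with and without single libraries for most lists with calls.

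Of 14429 genes tested, 432 rose (2.99%) and 313 fell (2.17%) after long washout, in edgeR's quasi-likelihood test at a Benjamini-Hochberg adjusted p under 0.05, and 274 of the 745 changed at least 2-fold. At an unadjusted p under 0.05 there were 3373 genes, and at an adjusted p under 0.01 only 9, so most calls lay near the threshold. Without long washout replicate 1, the fit called 1837 genes, 728 of them among the 745. Calls needed the other libraries: 23 genes were called without DTP replicate 1, 49 without DTP replicate 2, 517 without DTP replicate 3, 21 without long washout replicate 2 and 17 without long washout replicate 3. The median log2 fold change of all genes tested was -0.0081. Over the 61 called genes that the text names by rule, 60 (not IL1A) stayed called without long washout replicate 1, 39 without DTP replicate 3, 14 without DTP replicate 2, 10 without DTP replicate 1, 9 without long washout replicate 2 and 8 without long washout replicate 3. In each of the 745 called genes, the 3 long washout values lay outside the range of the 3 DTP values. That also held for 2027 genes higher and 2130 genes lower after long washout regardless of the test. Among the called genes, long washout replicate 1 was the one nearest to the DTP mean in 578 (77.6%), replicate 2 in 94 (12.6%) and replicate 3 in 73 (9.80%).

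**Figure D1:**
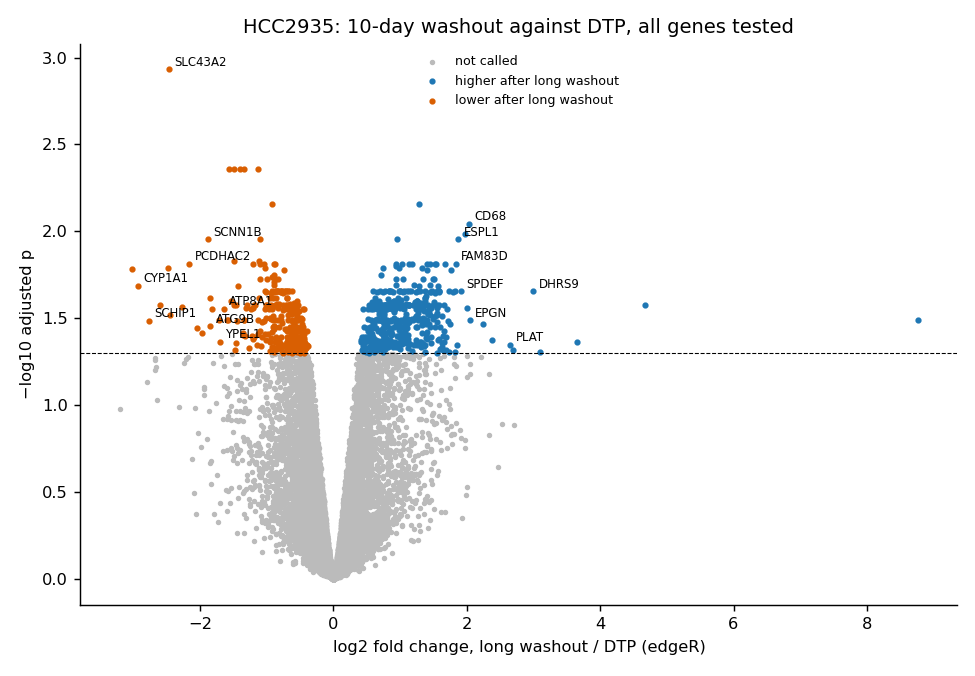
Log2 fold change of long washout against DTPs (x axis) and the negative log10 of the adjusted p (y axis) for the 14429 genes tested in HCC2935, with called genes in colour and the threshold of 0.05 as a dashed line. The calls form a dense band just above the line, SLC43A2 stands highest, and points beyond a log2 fold change of 3 without a name are genes under a mean of 5 CPM, which were not named.

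The replication machinery rose as a group. Of 33 genes of DNA replication and G1/S, 23 rose and none fell, where 2.99% of all genes tested rose and 2.17% fell. The median log2 fold change of the 33 was 0.94. In this list and the next 2, no member was lower even at an unadjusted p under 0.05, in edgeR or DESeq2. The members are the MCM helicase, which unwinds DNA at origins, its loaders and partners (CDC6, CDT1, CDC45, the GINS complex), the enzymes that make deoxynucleotides (RRM1, RRM2, TYMS, TK1), polymerases and the E2F factors that drive them. MCM2 stood at 84.2, 59.8 and 102 CPM in the DTP libraries and 134, 162 and 169 CPM after long washout (TMM-normalized CPM, read counts scaled to the library's size, in the order of replicates 1 to 3), a log2 fold change of 0.91 ± 0.18, adjusted p = 0.0291, where ± is the standard error throughout. The helicase partner MCM3 read 125, 96.1 and 139 CPM in the DTP libraries and 203, 269.6 and 249 CPM after long washout (1.00 ± 0.16, adjusted p = 0.022). For both genes the groups were apart, as in every called gene, with long washout replicate 1 the lowest of its group and DTP replicate 3 the highest of its own. MCM4 stood at 6.54, 6.87 and 12.1 CPM in the DTP libraries and 14.6, 15.7 and 16.8 CPM after long washout and missed the threshold (0.88 ± 0.24, adjusted p = 0.0638). The largest rise of the group was in RRM2, the small subunit of ribonucleotide reductase, from 54.8, 43.5 and 70.8 to 124, 239.8 and 214 CPM (1.77 ± 0.25, adjusted p = 0.0167), with reads that could be shared with its 3 named pseudogenes. The cyclins E, which open S phase with CDK2, were not called. CCNE1 read 12.7, 9.65 and 15.2 CPM in the DTP libraries and 14.7, 19.5 and 14.8 CPM after long washout (0.38 ± 0.20, adjusted p = 0.29). CCNE2 read 3.91, 3.81 and 4.22 CPM in the DTP libraries and 4.14, 5.63 and 4.30 CPM after long washout (0.23 ± 0.24, adjusted p = 0.601).

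Genes of mitosis had the largest median of the 33 lists. Of 30 genes of mitosis and G2/M, 24 rose and none fell, with a median log2 fold change of 1.36, and the 6 others (AURKA, BUB1, BUB1B, NUSAP1, TTK and UBE2C) had values of 0.92 to 1.37 that missed the threshold. MKI67, the proliferation antigen that coats mitotic chromosomes, read 90.9, 63.5 and 142 CPM in the DTP libraries and 216, 384 and 271 CPM after long washout (1.55 ± 0.29, adjusted p = 0.0264). TOP2A, which untangles sister chromatids, read 139, 109 and 236 CPM in the DTP libraries and 333, 560.5 and 448 CPM after long washout (1.47 ± 0.28, adjusted p = 0.0274). CDK1, the kinase that starts mitosis, read 25.2, 18.7 and 34.5 CPM in the DTP libraries and 52.6, 86.2 and 65.4 CPM after long washout (1.38 ± 0.24, adjusted p = 0.024). In these genes DTP replicate 3 was the highest persister library and long washout replicate 2 the highest of its group. AURKB, the kinase of the chromosomal passenger complex, had the largest rise of the group, from 8.69, 7.86 and 12.4 to 19.6, 45.9 and 36.9 CPM (1.82 ± 0.30, adjusted p = 0.0221). ESPL1 (separase, the protease that cleaves cohesin at anaphase) and FAM83D (a partner of mitotic kinases at the spindle) stood outside the list and were among the 10 largest rises of the table. ESPL1 went from 12.1, 8.85 and 11.3 to 27.5, 48.3 and 42.7 CPM (1.87 ± 0.22, adjusted p = 0.0111) and FAM83D from 16.2, 14.4 and 20.7 to 39.8, 73.9 and 69.8 CPM (1.83 ± 0.24, adjusted p = 0.0153).

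Repair by homologous recombination and the Fanconi pathway, which is used in S and G2 phase, followed. Of 15 genes, 9 rose and none fell, with a median log2 fold change of 1.02. FANCD2, which is loaded onto DNA at crosslinks, read 12.6, 8.34 and 13.7 CPM in the DTP libraries and 14.9, 23.2 and 17.2 CPM after long washout and missed the threshold (0.67 ± 0.23, adjusted p = 0.118). Its partner FANCI read 86.6, 65.4 and 110.5 CPM in the DTP libraries and 143, 206 and 197 CPM after long washout (1.05 ± 0.20, adjusted p = 0.0268). EXO1, the nuclease that resects breaks, had the largest rise of the group, from 12.7, 8.38 and 13.8 to 30.2, 44.5 and 36.5 CPM (1.67 ± 0.21, adjusted p = 0.0153).

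These 3 counts held without long washout replicate 1 (26 of 33, 29 of 30 and 9 of 15) and without DTP replicate 3 (26, 30 and 10). They were lost in the fits without DTP replicate 1, DTP replicate 2, long washout replicate 2 or long washout replicate 3, with 0 to 3 members called for replication, 0 for mitosis and 0 or 1 for repair, where the same test at an unadjusted p under 0.05 still had 29, 29 and 12 to 14 members higher. The loss followed the whole table, in which 17 to 49 genes were called in those fits.

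The promoters of the first mitotic and replication genes in the lists are shown because the groups moved together and differ in the letters known to recruit their regulators. They run from 250 bases before to 50 bases after the transcription start, 5′ to 3′ on the gene's strand, from RefSeq (GRCh38.p14). Capitals mark the letters of the CHR element of MuvB (TTTGAA), of the CCAAT box of NF-Y and of an E2F core (GCGGGAA). Each was sought on both strands, so that its reverse complement is in capitals as well. In the MKI67 promoter a CHR and a CCAAT box share a base.
MKI67 (chr10:128126374-128126673, minus strand): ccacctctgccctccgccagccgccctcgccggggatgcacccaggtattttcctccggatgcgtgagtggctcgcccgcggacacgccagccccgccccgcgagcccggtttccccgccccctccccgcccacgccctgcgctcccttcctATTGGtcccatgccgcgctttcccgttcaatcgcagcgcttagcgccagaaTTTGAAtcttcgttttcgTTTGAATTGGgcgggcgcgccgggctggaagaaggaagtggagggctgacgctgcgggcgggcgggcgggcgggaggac
TOP2A (chr17:40417847-40418146, minus strand): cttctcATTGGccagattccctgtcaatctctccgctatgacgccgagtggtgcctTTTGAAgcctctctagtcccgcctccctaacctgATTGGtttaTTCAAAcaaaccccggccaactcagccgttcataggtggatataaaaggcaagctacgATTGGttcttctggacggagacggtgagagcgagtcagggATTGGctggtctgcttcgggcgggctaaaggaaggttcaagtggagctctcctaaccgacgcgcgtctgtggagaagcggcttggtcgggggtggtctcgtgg
CDK1 (chr10:60778081-60778380, plus strand): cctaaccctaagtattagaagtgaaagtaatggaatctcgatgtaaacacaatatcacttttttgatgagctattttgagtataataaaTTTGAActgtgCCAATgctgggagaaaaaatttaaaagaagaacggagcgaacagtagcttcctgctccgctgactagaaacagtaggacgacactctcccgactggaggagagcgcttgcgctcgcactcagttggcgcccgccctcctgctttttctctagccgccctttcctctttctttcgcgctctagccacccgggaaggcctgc
MCM2 (chr3:127598161-127598460, plus strand): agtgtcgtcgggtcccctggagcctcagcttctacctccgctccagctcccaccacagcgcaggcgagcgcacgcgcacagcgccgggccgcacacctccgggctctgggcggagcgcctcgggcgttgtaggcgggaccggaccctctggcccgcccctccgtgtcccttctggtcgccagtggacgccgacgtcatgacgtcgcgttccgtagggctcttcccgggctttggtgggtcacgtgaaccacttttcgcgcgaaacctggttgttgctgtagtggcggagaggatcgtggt
MCM3 (chr6:52284693-52284992, minus strand): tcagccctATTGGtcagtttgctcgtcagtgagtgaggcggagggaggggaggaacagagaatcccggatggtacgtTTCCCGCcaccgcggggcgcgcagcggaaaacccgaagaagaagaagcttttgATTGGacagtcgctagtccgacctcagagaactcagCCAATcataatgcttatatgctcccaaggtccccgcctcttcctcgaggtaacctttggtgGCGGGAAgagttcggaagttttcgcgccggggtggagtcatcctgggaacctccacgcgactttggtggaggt

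The 3 mitotic promoters each hold the letters of a CHR and of a CCAAT box. MCM3 holds 2 E2F cores and 3 CCAAT boxes, and MCM2 holds none of these exact letters in the window. Only the exact letters were sought, so promoters with other forms of a site were not counted. Promoters were matched for 24 of the 30 mitotic and 28 of the 33 replication genes. The CHR was in 17 of the 24 (70.8%) and 1 of the 28 (3.57%), against 15.4% of 27305 promoters and 10.0% of the 11276 with a tested gene. The E2F core was in 2 of the 24 (8.33%) and 13 of the 28 (46.4%), against 6.56% and 10.1%. The CCAAT box was in 19 (79.2%) and 16 (57.1%), against 35.7% and 36.1%. These are descriptions of letters and no test was made. Whether any marked stretch is a site in use was not tested.

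The level of each list in every library shows where long washout stood among the 5 arms. The mean log2(CPM + 1) over the 33 replication genes was 4.70, 4.38 and 5.04 in DTPs, 5.80, 5.80 and 5.88 after short washout, 5.43, 5.81 and 5.68 after long washout and 6.34, 6.41 and 6.12 under DMSO. Long washout overlapped short washout and stayed under DMSO in all libraries. Over the 30 mitotic genes the level was 4.90, 4.59 and 5.63 in DTPs, 5.99, 5.40 and 5.40 after short washout, 5.95, 6.80 and 6.43 after long washout and 6.74, 6.71 and 6.55 under DMSO. Here long washout replicate 2 was above all DMSO libraries and replicate 1 just under the highest short washout library. Over the 15 repair genes it was 4.49, 4.18 and 4.74 in DTPs, 5.51, 5.36 and 5.42 after short washout, 5.18, 5.57 and 5.40 after long washout and 5.76, 5.78 and 5.67 under DMSO. Acute cells were lowest for replication and repair, at 3.73 to 3.79 and 3.80 to 3.86. Short washout was not tested against DTPs.

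**Figure D2:**
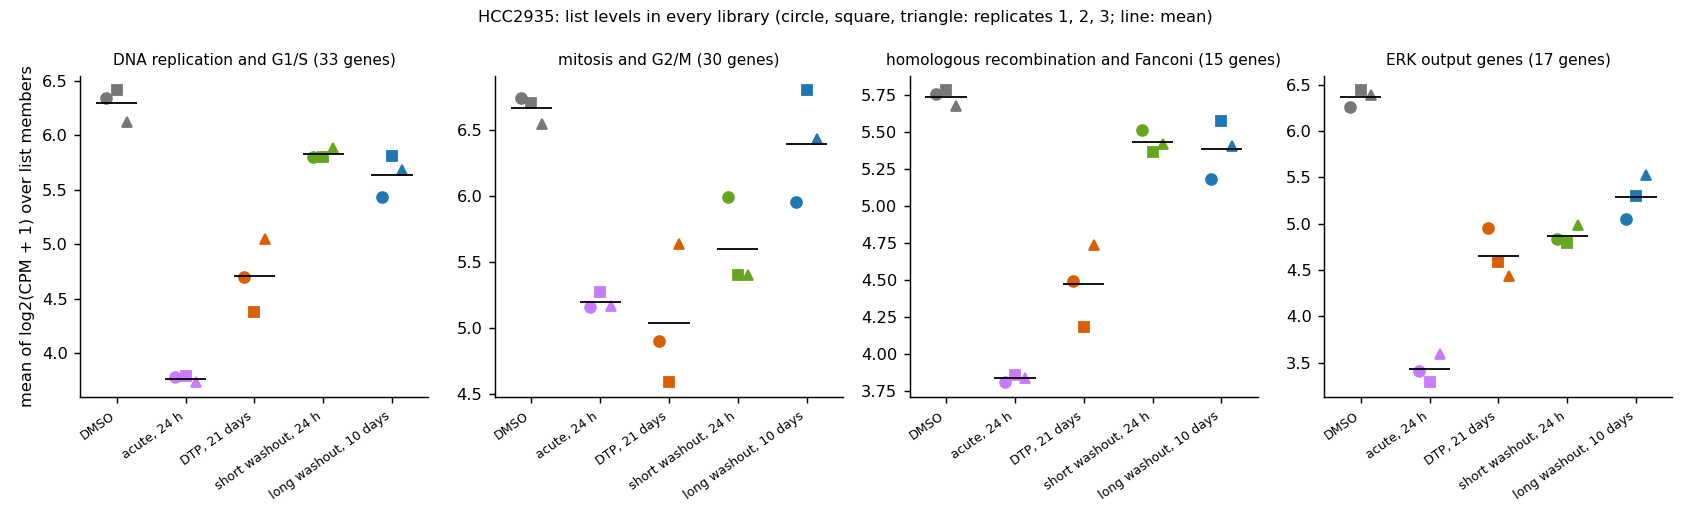
Mean log2(CPM + 1) over the members of 4 gene lists (y axis, own range in each panel) in each of the 15 HCC2935 libraries by arm (x axis), with replicates 1, 2 and 3 as circle, square and triangle and a line at the arm's mean. In replication and repair the points of short and long washout overlap, in mitosis long washout replicate 1 (5.95) lies under the highest short washout library (5.99), and ERK output genes lie under all DMSO libraries after long washout.

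Against short washout, which asks what changed between 24 h and 10 days without drug, 89 of 14292 genes were higher (0.623%) and 61 lower (0.427%). Long washout libraries are shared with the comparison above. Of the 33 replication genes, none was higher and 1, CCNE2, was lower, from 11.2, 8.18 and 10.7 to 4.14, 5.63 and 4.30 CPM (-1.09 ± 0.21, adjusted p = 0.0465), with a median of -0.14 over the list. At an unadjusted p under 0.05, 9 of the 33 were lower and 0 higher, and DESeq2 called 7 lower and 0 higher. Of the 30 mitotic genes, 1 was called, the centromeric histone CENPA, from 12.4, 7.22 and 6.83 to 16.3, 26.2 and 20.8 CPM (1.26 ± 0.25, adjusted p = 0.0498). The mitotic median was 0.81, 29 of the 30 were higher at an unadjusted p under 0.05, and DESeq2 called 18. No repair gene was called (1 at an unadjusted p under 0.05, lower, and 0 by DESeq2), with a median of -0.10. In all, this comparison called 971 genes without long washout replicate 1, 170 without replicate 2 and 16 without replicate 3, and 7, 10 and 1 without short washout replicates 1, 2 and 3.

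Against DMSO, 2977 of 14199 genes were higher (21.0%) and 2686 lower (18.9%) after long washout. Of the 33 replication genes, 26 were lower (median -0.64), of the 30 mitotic genes 6 (BUB1B, CDK1, DLGAP5, KIF11, MKI67 and TOP2A, median -0.14) and of the 15 repair genes 6 (median -0.31). No member of the 3 lists was higher in edgeR, in DESeq2 or at an unadjusted p under 0.05. RRM2 read 526, 533 and 437 CPM under DMSO (-1.36 ± 0.21, adjusted p = 0.000952), and MKI67 513, 499.6 and 473 CPM (-0.76 ± 0.18, adjusted p = 0.0083).

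Of 16 CDK inhibitors and genes of quiescence, 4 fell and 1 rose, where 2.17% of all genes tested fell and 2.99% rose. The median of the 16 was -0.23. The counts were 5 and 1 without long washout replicate 1, 1 and 1 without DTP replicate 3, and 0 without DTP replicate 1 or 2 or long washout replicate 2 or 3 (6 or 7 lower and 1 or 2 higher at an unadjusted p under 0.05). CDKN1C (p57, a CDK inhibitor) read 4.90, 4.01 and 4.12 CPM in the DTP libraries and 2.09, 1.78 and 1.32 CPM after long washout (-1.33 ± 0.30, adjusted p = 0.04). CCNG2, a cyclin of arrested cells, read 49.8, 57.7 and 48.9 CPM in the DTP libraries and 33.3, 30.5 and 27.6 CPM after long washout (-0.78 ± 0.12, adjusted p = 0.0221). In both genes all 3 long washout values lay under the lowest DTP value, as in every called fall. MXD4, a repressor that competes with MYC for MAX, read 107, 119 and 119 CPM in the DTP libraries and 83.1, 54.7 and 56.5 CPM after long washout (-0.84 ± 0.16, adjusted p = 0.0277). YPEL5 also fell (-0.43 ± 0.10, adjusted p = 0.0463). CDKN2C (p18), a CDK4 and CDK6 inhibitor, went the other way, from 4.26, 4.37 and 7.27 to 10.9, 14.9 and 11.7 CPM (1.24 ± 0.25, adjusted p = 0.0306). The best known members did not pass, with CDKN1A (p21) at 459, 419.7 and 388 CPM in the DTP libraries and 416, 371 and 370.4 CPM after long washout (-0.14 ± 0.10, adjusted p = 0.473). CDKN1B (p27) was at 40.9, 42.2 and 42.8 CPM in the DTP libraries and 35.4, 41.7 and 38.1 CPM after long washout (-0.13 ± 0.11, adjusted p = 0.507). In both genes the groups overlapped. Of 13 FOXO factors and targets, 2 fell, 11 were not called and the median was -0.45. The count was 6 without long washout replicate 1, 5 by DESeq2 and 0 without any other library (5 to 9 lower at an unadjusted p under 0.05). The 2 were the insulin receptor INSR (34.8, 26.5 and 27.6 CPM in DTPs and 20.7, 14.03 and 17.1 CPM after long washout, -0.78 ± 0.18, adjusted p = 0.0406) and CITED2, a transcriptional co-regulator (-0.45 ± 0.10, adjusted p = 0.0421).

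The output of ERK signalling was higher for most genes and called for few. Of 17 tested genes, 16 had a positive log2 fold change and the median was 0.70. Where 2.99% of all genes tested rose, 2 of the 17 did, the negative regulator SPRED2 and PHLDA1. Another 7 were higher at an unadjusted p under 0.05, and 7 of the 17 were called without long washout replicate 1 and 0 without any other library (6 to 11 at an unadjusted p under 0.05). SPRED2 read 26.3, 15.5 and 17.9 CPM in the DTP libraries and 28.6, 42.6 and 46.00 CPM after long washout (0.97 ± 0.23, adjusted p = 0.0463). PHLDA1 read 49.8, 38.4 and 38.96 CPM in the DTP libraries and 56.2, 81.7 and 97.3 CPM after long washout (0.88 ± 0.19, adjusted p = 0.0386). In both genes replicates 2 and 3 of the long washout lay well above replicate 1. DUSP6, the phosphatase that acts on ERK, read 15.5, 12.3 and 8.96 CPM in the DTP libraries and 14.2, 17.9 and 28.2 CPM after long washout (0.70 ± 0.28, adjusted p = 0.166), against 166, 160.2 and 155 CPM under DMSO (-2.99 ± 0.22, adjusted p = 1.18e-05). Its long washout values overlapped the DTP values and stayed far under DMSO. SPRY4, another feedback inhibitor, read 7.998, 3.73 and 2.81 CPM in the DTP libraries and 10.1, 12.5 and 21.9 CPM after long washout (1.60 ± 0.41, adjusted p = 0.0536). The ETS factor ETV4 read 4.56, 2.30 and 4.75 CPM in the DTP libraries and 6.51, 9.57 and 15.3 CPM after long washout (1.43 ± 0.36, adjusted p = 0.0544). The other members ranged from -0.47 (EGR1) to 1.29 (FOSL1), with CCND1 at 0.30 and MYC at 0.13. Against DMSO 11 of the 17 were lower and none higher, where 18.9% of all genes tested were lower and 21.0% higher. The median there was -1.19. Against short washout none was called (5 higher at an unadjusted p under 0.05, 4 by DESeq2).

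EGFR, the drug's target, was not called. It read 1076, 780.1 and 809.7 CPM in the DTP libraries and 911, 854 and 929 CPM after long washout, a log2 fold change of 0.0095 ± 0.13, adjusted p = 0.974. Among the 14 ERBB receptors, ligands and inhibitors, 1 rose and 1 fell, where 2.99% of all genes tested rose and 2.17% fell. Rises and falls were 1 and 2 without long washout replicate 1. They were 1 and 0 without DTP replicate 1 and 0 and 1 without DTP replicate 3. Without DTP replicate 2 or long washout replicate 2 or 3 both were 0 (1 higher and 3 lower at an unadjusted p under 0.05). EPGN, an EGFR ligand, went from 1.16, 5.08 and 4.36 to 12.7, 14.3 and 17.04 CPM (2.04 ± 0.42, adjusted p = 0.0324) and was at 2.13, 1.66 and 2.33 CPM under DMSO (2.86 ± 0.22, adjusted p = 1.75e-05), so that it was higher than in cells never given the drug. ERBB2 read 475, 395 and 450.4 CPM in the DTP libraries and 346, 332 and 300.2 CPM after long washout (-0.44 ± 0.11, adjusted p = 0.0497).

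Of 23 tested interferon-stimulated genes, 5 rose and 1 fell, where 2.99% of all genes tested rose and 2.17% fell. The median log2 fold change of the list was 0.67. At an unadjusted p under 0.05, 14 were higher and 1 lower. The antiviral IFI6 read 4.52, 10.4 and 10.4 CPM in the DTP libraries and 26.5, 15.6 and 25.2 CPM after long washout (1.41 ± 0.32, adjusted p = 0.0416). IFI27 read 7.83, 9.01 and 6.78 CPM in the DTP libraries and 22.7, 17.3 and 22.95 CPM after long washout (1.40 ± 0.18, adjusted p = 0.0153). The RNA sensor OAS3 read 49.2, 33.7 and 54.2 CPM in the DTP libraries and 97.9, 140.3 and 138 CPM after long washout (1.45 ± 0.19, adjusted p = 0.0153). As in every called gene, the groups did not overlap in these 3. For IFI6 and IFI27 it was replicate 2 that was the lowest after long washout. OAS1 (0.90 ± 0.21, adjusted p = 0.0463) and OAS2 (1.02 ± 0.24, adjusted p = 0.0444) rose too. STAT2, a subunit of the interferon-activated factor itself, fell from 98.5, 123 and 93.4 to 59.4, 45.4 and 50.5 CPM (-1.03 ± 0.14, adjusted p = 0.0163). Leaving out long washout replicate 1 gave 8 higher, and leaving out DTP replicate 1, DTP replicate 2, DTP replicate 3, long washout replicate 2 and long washout replicate 3 gave 0, 2, 3, 1 and 0. Against short washout 10 were higher and none lower (median 0.95, with 1 lower at an unadjusted p under 0.05 and 1 by DESeq2). Against DMSO 4 were higher and 1 lower (median 0.42), where 21.0% of all genes tested were higher and 18.9% lower. The mean log2(CPM + 1) of the list was 3.83, 3.55 and 4.33 under DMSO and 4.27, 4.16 and 4.44 after long washout, so the groups overlapped. In the MHC class I list, the immunoproteasome subunit PSMB9 was the single member called of 7 (38.7, 34.9 and 37.7 CPM against 51.2, 58.7 and 71.2 CPM, 0.70 ± 0.13, adjusted p = 0.0279). That count was 2 without long washout replicate 1 and 0 without any other library (1 at an unadjusted p under 0.05).

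The metabolic lists differed in their share of calls, where 2.99% of all genes tested rose and 2.17% fell. Of 16 genes of glycolysis and the hypoxia response, 4 rose (HK2, GAPDH, PKM and PGAM1) and 2 fell (the glucose transporter SLC2A1 and NDRG1), with a median of 0.33. The counts were 8 and 3 without long washout replicate 1, 2 and 1 without DTP replicate 3, and 0 without DTP replicate 1 or 2 or long washout replicate 2 or 3 (8 or 9 higher and 3 lower at an unadjusted p under 0.05). Hexokinase HK2 read 15.3, 19.2 and 16.6 CPM in the DTP libraries and 29.7, 35.1 and 45.7 CPM after long washout (1.11 ± 0.18, adjusted p = 0.0221). GAPDH read 1276, 1138 and 1693 CPM in the DTP libraries and 1824, 2503 and 2948 CPM after long washout (0.82 ± 0.19, adjusted p = 0.046). Both enzymes rose in all long washout libraries, with replicate 3 highest. SLC2A1 read 252, 216 and 239 CPM in the DTP libraries and 162, 179.8 and 180.2 CPM after long washout (-0.44 ± 0.10, adjusted p = 0.0421). NDRG1, a gene of hypoxia and differentiation, read 24.9, 15.8 and 15.6 CPM in the DTP libraries and 9.55, 8.27 and 11.3 CPM after long washout (-0.96 ± 0.22, adjusted p = 0.043). Of 22 genes of ribosome biogenesis, 2 rose, the snoRNP proteins NOP56 (0.47 ± 0.11, adjusted p = 0.0434) and fibrillarin, FBL (0.44 ± 0.11, adjusted p = 0.0474), with a median of 0.31, and 14 were lower than under DMSO. The count of rises was 7 without long washout replicate 1 and 0 without any other library (6 to 9 at an unadjusted p under 0.05). Of 15 targets of ATF4, the factor of the amino acid and stress response, 3 fell. They were asparagine synthetase ASNS (242, 188 and 179.7 CPM in the DTP libraries and 149.5, 129.7 and 97.3 CPM after long washout, -0.70 ± 0.17, adjusted p = 0.048), the glutathione-degrading CHAC1 (-0.89 ± 0.13, adjusted p = 0.0196) and the amino acid transporter chain SLC3A2 (-0.62 ± 0.12, adjusted p = 0.0297). The count was 7 without long washout replicate 1, 2 without DTP replicate 3 and 0 without DTP replicate 1 or 2 or long washout replicate 2 or 3 (5 to 7 at an unadjusted p under 0.05). None of 19 cholesterol genes was called (3 higher and 2 lower at an unadjusted p under 0.05, 0 by DESeq2), nor any of 22 respiratory chain genes (1 higher, 1 by DESeq2) or 8 fatty acid genes (3 higher, 1 by DESeq2). In the lysosome and autophagy list, GABARAPL1 fell, from 155, 157 and 150.3 to 120.3, 88.1 and 78.5 CPM (-0.69 ± 0.15, adjusted p = 0.0362), and stayed above its 13.4, 14.1 and 11.3 CPM under DMSO (2.90 ± 0.18, adjusted p = 4.61e-06), where 14 of the 19 genes were higher and 1 lower after long washout. The list had 4 falls without long washout replicate 1 and 0 without any other library (3 to 6 at an unadjusted p under 0.05). Against DMSO 16 of the 19 cholesterol genes were lower and 1 higher, and 7 of the 8 fatty acid genes lower. For all counts against DMSO, the shares of all genes tested were 21.0% higher and 18.9% lower.

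Of 10 tested alveolar lineage genes, 3 fell and the median was -0.46, where 2.17% of all genes tested fell and 2.99% rose. The list had 4 falls without long washout replicate 1 and 2 without DTP replicate 3. It had 0 without DTP replicate 1 or 2 or long washout replicate 2 or 3 (3 to 5 at an unadjusted p under 0.05). In the epithelial identity list 1 of 8 genes was called, KRT19, with a median of 0.12. That count was 3 without long washout replicate 1 and 0 without any other library (3 higher and 1 lower at an unadjusted p under 0.05). SLC34A2, the phosphate transporter of type II cells, read 44.9, 29.6 and 21.1 CPM in the DTP libraries and 15.9, 12.4 and 6.49 CPM after long washout (-1.46 ± 0.34, adjusted p = 0.044). ABCA3, which loads surfactant lipid into lamellar bodies, read 71.4, 55.9 and 56.99 CPM in the DTP libraries and 39.9, 30.4 and 25.8 CPM after long washout (-0.94 ± 0.17, adjusted p = 0.0264). AGER, a type I cell receptor, read 17.8, 18.9 and 15.8 CPM in the DTP libraries and 10.5, 7.79 and 4.39 CPM after long washout (-1.21 ± 0.27, adjusted p = 0.0414). In each of the 3 genes replicate 3 was the lowest after long washout. Of 13 keratins, 4 rose and none fell (0 lower at an unadjusted p under 0.05), with a median of 0.53. The count was 7 without long washout replicate 1, 1 without DTP replicate 3 or long washout replicate 2, and 0 without DTP replicate 1, DTP replicate 2 or long washout replicate 3 (7 to 9 at an unadjusted p under 0.05). KRT13, a keratin of stratified mucosa, read 49.5, 97.1 and 109.9 CPM in the DTP libraries and 221, 154 and 424 CPM after long washout (1.63 ± 0.38, adjusted p = 0.0439) against 50.99, 49.2 and 43.7 CPM under DMSO. The basal KRT5 was low, with 1.25, 1.59 and 0.824 CPM in the DTP libraries and 8.28, 2.42 and 6.79 CPM after long washout (2.24 ± 0.47, adjusted p = 0.0342), and KRT81 (1.70 ± 0.33, adjusted p = 0.0278) is close in sequence to other hair keratins, so its reads are uncertain. KRT13 in replicate 3 reached the highest value, well above the DTP range. KRT19, a keratin of simple epithelium, read 1186, 1211 and 1395 CPM in the DTP libraries and 1598, 1932 and 2355 CPM after long washout (0.63 ± 0.15, adjusted p = 0.044).

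AXL and SNAI2 rose. AXL, a receptor kinase named in resistance to EGFR inhibitors, read 50.5, 35.97 and 46.04 CPM in the DTP libraries and 81.9, 98.5 and 91.1 CPM after long washout (1.03 ± 0.14, adjusted p = 0.0153), against 34.7, 35.2 and 17.1 CPM under DMSO (1.65 ± 0.23, adjusted p = 0.000562). SNAI2, a repressor of epithelial junction genes, read 24.8, 29.4 and 25.4 CPM in the DTP libraries and 43.6, 40.05 and 41.9 CPM after long washout (0.65 ± 0.12, adjusted p = 0.0263) against 10.1, 9.42 and 6.36 CPM under DMSO (2.29 ± 0.17, adjusted p = 1.56e-05). In both genes the 3 long washout values lay above all DTP, short washout and DMSO values. AXL was the single called member of the 11 YAP and TEAD genes and the single rise among 10 bypass receptor kinases, where INSR and FGFR2 (-0.65 ± 0.16, adjusted p = 0.046) fell. SNAI2 was the single call of 13 epithelial-mesenchymal genes, with CDH1 at 0.14 and VIM at -0.11. That list had 1 call without long washout replicate 1 and 0 without any other library (1 or 2 higher and 0 to 2 lower at an unadjusted p under 0.05). The YAP and bypass lists each had 1 rise and 0 falls without DTP replicate 1, 2 or 3. Both had 2 rises and 2 falls without long washout replicate 1, and 0 calls without long washout replicate 2 or 3. Over all genes tested, 2.99% rose and 2.17% fell. Of 16 integrins and laminins 12 were called higher against DMSO, where 21.0% of all genes tested were higher. Against DTPs 3 rose, ITGA3 (0.65 ± 0.15, adjusted p = 0.0456), ITGA5 (0.80 ± 0.16, adjusted p = 0.0324) and ITGA6 (0.67 ± 0.16, adjusted p = 0.0449). Without long washout replicate 1, 3 rose and 1 fell, and without any other library none was called (4 to 6 higher and 0 or 1 lower at an unadjusted p under 0.05).

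**Figure D3:**
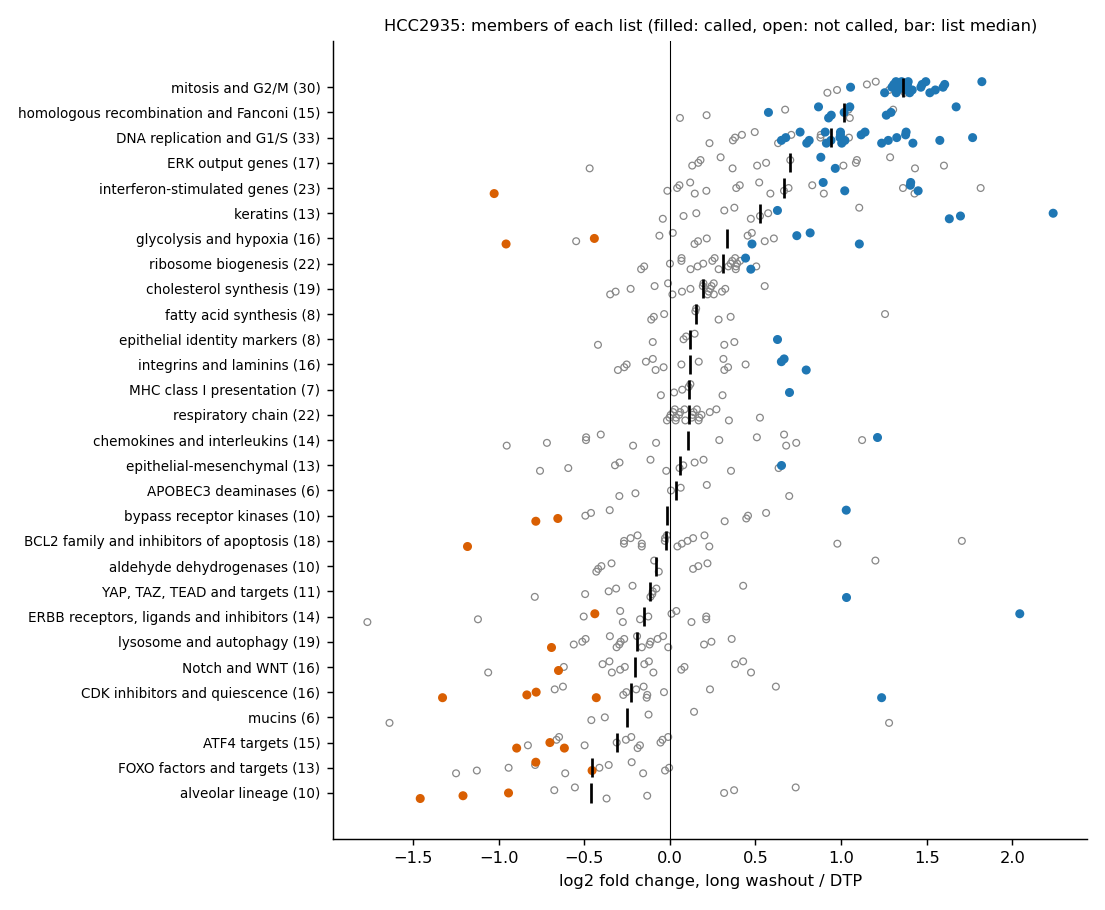
Log2 fold change of long washout against DTPs (x axis) for each tested member of 29 gene lists (y axis, number of genes in brackets), filled where called, with a bar at the list median and lists in the order of the median. Mitosis, repair and replication lead with medians of 1.36, 1.02 and 0.94, and the alveolar and FOXO lists are lowest at -0.46 and -0.45.

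The other lists held few calls. Over all genes tested, 2.99% rose and 2.17% fell, so a single call in a list of this size is close to the share of all genes. BMF, a BH3-only protein that favours apoptosis, fell from 345, 387 and 342 to 223, 138 and 114 CPM (-1.19 ± 0.22, adjusted p = 0.0264) and was the single call of 18 BCL2 family genes and inhibitors of apoptosis. BCL2L11 (BIM), MCL1 and BCL2 were not called, at -0.23, -0.017 and 0.98. IL1A was the single call of 14 chemokines and interleukins (8.21, 15.4 and 8.48 CPM against 27.8, 17.1 and 29.9 CPM, 1.21 ± 0.29, adjusted p = 0.0451) and AXIN2, a target of WNT signalling, the single call of 16 Notch and WNT genes (-0.65 ± 0.12, adjusted p = 0.0274). Without DTP replicate 1 or 2 or long washout replicate 2 or 3, the BCL2, chemokine, and Notch and WNT lists each had 0 calls. No member was called of 6 mucins (3 lower at an unadjusted p under 0.05, 1 by DESeq2), 6 APOBEC3 deaminases (1 higher, 0 by DESeq2), 10 aldehyde dehydrogenases (1 higher and 3 lower, 1 by DESeq2) and 2 MHC class II genes (0 by either).

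Among called genes averaging 5 CPM or more, 7 of the 10 largest rises were outside the cell cycle. DHRS9, a short-chain dehydrogenase that acts on retinoids (chr2:169064789-169096167 in hg38), read 2.92, 2.46 and 1.74 CPM in the DTP libraries and 9.43, 13.2 and 34.96 CPM after long washout (2.99 ± 0.48, adjusted p = 0.0221), against 90.5, 98.4 and 83.9 CPM under DMSO. PLAT, the tissue plasminogen activator, read 169, 45.02 and 104 CPM in the DTP libraries and 211, 538 and 1258 CPM after long washout (2.65 ± 0.63, adjusted p = 0.0449), against 1447, 1457 and 1342 CPM under DMSO. In both genes the 3 long washout values spread widely, with replicate 3 highest and replicate 1 lowest. HAS3, a hyaluronan synthase (chr16:69105564-69118719), read 18.96, 18.9 and 20.1 CPM in the DTP libraries and 61.1, 59.2 and 108 CPM after long washout (1.97 ± 0.22, adjusted p = 0.0104). SPDEF, an ETS factor of secretory epithelium (chr6:34537802-34556333), read 7.70, 4.01 and 5.82 CPM in the DTP libraries and 13.5, 23.8 and 28.8 CPM after long washout (1.91 ± 0.31, adjusted p = 0.0221). For HAS3 the DTP libraries differed from each other by little, and for SPDEF replicate 1 was again the lowest after long washout. CD68, a lysosomal glycoprotein used as a macrophage marker (chr17:7579467-7582113), read 7.53, 7.26 and 8.24 CPM in the DTP libraries and 21.1, 35.3 and 37.99 CPM after long washout (2.03 ± 0.22, adjusted p = 0.00902), with 72.7, 64.3 and 89.5 CPM under DMSO. ISLR, a secreted leucine-rich repeat protein, read 1.98, 2.66 and 2.33 CPM in the DTP libraries and 6.86, 6.06 and 11.5 CPM after long washout (1.80 ± 0.30, adjusted p = 0.0222). With EPGN, ESPL1, FAM83D and AURKB these make up the 10 largest rises. CD68 was called in every leave-out fit.

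Among the 10 largest falls were transporters, a cytochrome P450 and genes of the lysosome and autophagy. SLC43A2, a transporter of large neutral amino acids (chr17:1569267-1628886), had the lowest adjusted p of the table. It read 56.8, 53.2 and 49.04 CPM in the DTP libraries and 10.8, 10.7 and 7.32 CPM after long washout (-2.47 ± 0.17, adjusted p = 0.00117) and 11.7, 15.2 and 11.3 CPM under DMSO (-0.39 ± 0.20, adjusted p = 0.158). CYP1A1, the cytochrome P450 induced by the aryl hydrocarbon receptor (chr15:74719542-74725610), read 1144, 410.1 and 485 CPM in the DTP libraries and 133, 87.6 and 48.5 CPM after long washout (-2.93 ± 0.45, adjusted p = 0.0205), with 279, 314 and 349 CPM after short washout and 68.8, 81.2 and 172 CPM under DMSO. Its order was thus DTPs, short washout and long washout, with no overlap between neighbours. SCNN1B, a subunit of the epithelial sodium channel, read 16.4, 17.4 and 12.3 CPM in the DTP libraries and 4.42, 3.25 and 4.93 CPM after long washout (-1.88 ± 0.22, adjusted p = 0.0111). FBLN5, an elastic fibre protein, read 50.96, 45.8 and 33.3 CPM in the DTP libraries and 23.2, 11.1 and 8.74 CPM after long washout (-1.60 ± 0.33, adjusted p = 0.0324). In FBLN5 replicate 1 of the long washout kept the highest value of its group. RRAGD, a GTPase that brings mTORC1 to the lysosome, read 17.3, 9.05 and 7.71 CPM in the DTP libraries and 4.66, 3.77 and 2.98 CPM after long washout (-1.58 ± 0.33, adjusted p = 0.0325). YPEL1 (-1.70 ± 0.39, adjusted p = 0.043), the lipid flippase ATP8A1 (-1.64 ± 0.32, adjusted p = 0.0278) and the autophagy gene ATG9B (-1.84 ± 0.39, adjusted p = 0.0351) fell as well. PCDHAC2 (-2.16 ± 0.28, adjusted p = 0.0153) shares exons with the protocadherin alpha cluster and SCHIP1 (-2.77 ± 0.58, adjusted p = 0.0325) lies within IQCJ-SCHIP1, so both are uncertain. Of the 20 genes, 7 share their locus with an opposite-strand gene (CD68, HAS3, ISLR, ATG9B with NOS3, YPEL1, ATP8A1 and PCDHAC2), and whether strand was used in counting is not given in the sources used here.

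**Figure D4:**
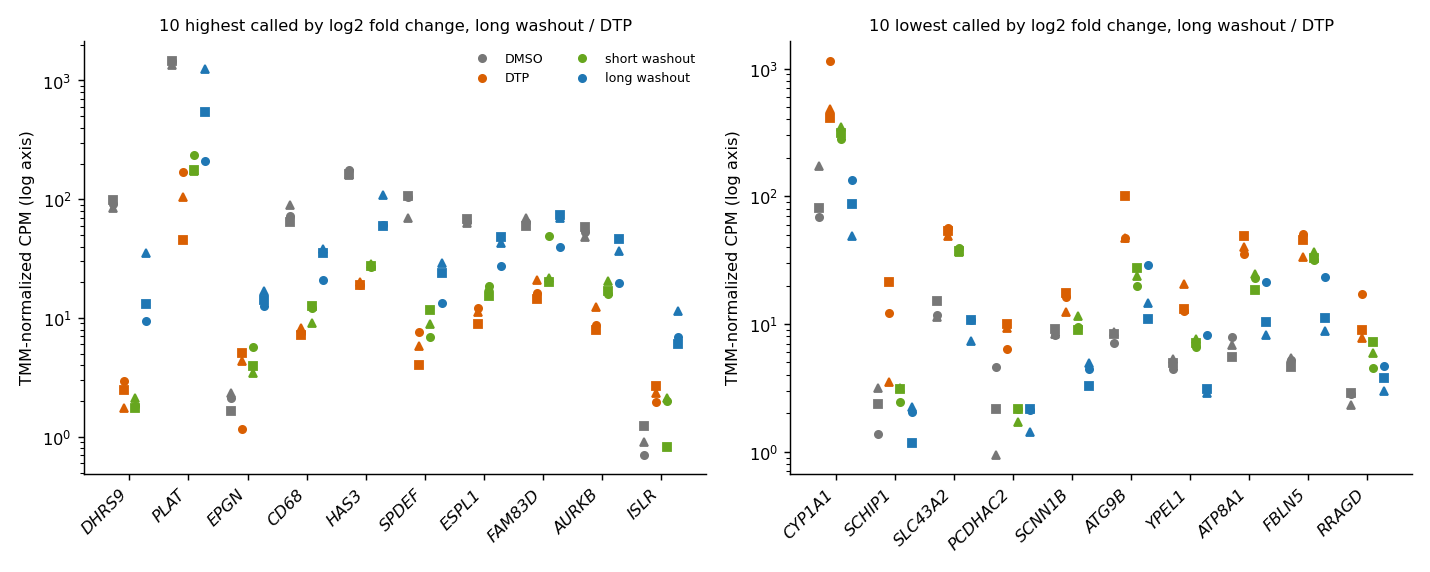
TMM-normalized CPM (y axis, log scale) of the 10 largest rises (left) and falls (right) in the DMSO, DTP, short washout and long washout libraries, with replicates 1, 2 and 3 as circle, square and triangle. Long washout points lie outside the range of the DTP points in all 20 genes, which the choice of genes required. PLAT has the widest spread after long washout (211 to 1258 CPM).

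Whether the washout effect was particular to HCC2935 was tested as the difference between its log2 fold change and the mean of PC9 (7 days), HCC827 (4 days) and H1975 (3 days). Since the length of washout differed between the lines, line and time cannot be told apart. Of 16136 genes tested, the effect was more positive in 39 (0.242%) and more negative in 39 (0.242%). In the same fit the effect itself was called for 1102 genes in HCC2935, 4060 in PC9, 0 in HCC827 and 4 in H1975 by edgeR, with 848 and 489 at an unadjusted p under 0.05 in the last 2 lines. The list medians in HCC2935, PC9, HCC827 and H1975 were 1.38, 1.11, -0.05 and -0.31 for mitosis, 0.96, 0.93, 0.10 and -0.19 for replication, and 0.64, -0.41, 0.32 and 0.02 for interferon-stimulated genes. The difference was called for 257 genes without long washout replicate 1 of HCC2935, for 23 and 11 without its DTP replicates 1 and 2, for 14 and 5 without its long washout replicates 2 and 3, and for 19 to 135 without 1 library of another line. Few list members differed by the test, 1 mitotic gene (AURKB, a difference of 1.55 ± 0.34, adjusted p = 0.0451), 2 replication genes (CDT1, 1.15 ± 0.26, adjusted p = 0.0495, and RRM2, 1.51 ± 0.34, adjusted p = 0.0488), 1 repair gene (EXO1, 1.51 ± 0.30, adjusted p = 0.034), 1 alveolar gene (ABCA3, -1.02 ± 0.21, adjusted p = 0.0371) and 1 leukocyte marker (CD68, 1.94). At an unadjusted p under 0.05 the difference was positive for 28 of the 30 mitotic and 25 of the 33 replication genes, and DESeq2 called 11 and 6. No interferon-stimulated gene was called (4 positive and 1 negative at an unadjusted p under 0.05, 1 by DESeq2). Genes called here, called in long washout against DTPs and averaging 5 CPM or more were ranked. Among them PLAT had the largest positive difference (2.40 ± 0.51, adjusted p = 0.0439) and PCDHAC2 the largest negative one (-2.44 ± 0.42, adjusted p = 0.00958).

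**Figure D5:**
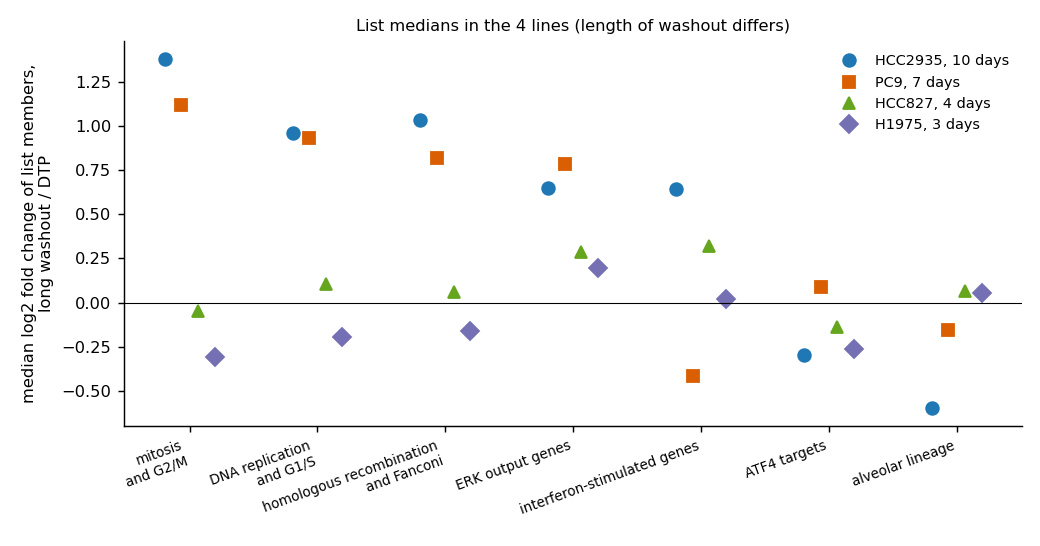
Median log2 fold change of long washout against DTPs (y axis) over the members of 7 gene lists (x axis) in the 4 lines, fitted together. HCC2935 and PC9 lie high for mitosis and replication and HCC827 and H1975 near or under 0, while the interferon median is highest in HCC2935.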

How the data were processed

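RNA-seq libraries of HCC2935 and 3 other EGFR-mutant lines were analysed as deposited. The deposited tables give estimated counts, unscaled, for each gene symbol and log2 values of TPM with a pseudocount of 0.01. Their processing notes name HISAT2 2.1.0, Salmon 0.8.2 and hg38, with no roles. The annotation and the strand of counting are not given in the sources used here, so reads of overlapping genes may be shared. One field of the labels names another line as the source of these cells, and the line was taken from title and characteristics.

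Estimated counts were rounded and every comparison had a fit of its own libraries in edgeR 4.0.16 (R 4.3.3), with TMM, filterByExpr and the quasi-likelihood F-test, two-sided, adjusted by Benjamini-Hochberg over all genes tested, with calls at 0.05. Standard errors are the absolute log2 fold change over the root of F. CPM per library came from 1 TMM scale over 15 libraries, so that a fold from printed CPM can differ slightly from the fitted one. The line difference was a contrast in a fit of 24 libraries. Counts were also simulated independently for each gene from the means, dispersions and library sizes of the main comparison. There 71% of genes changed 2-fold were called. The simulation held no shift shared by the genes of a library, so it does not give the power of the comparison itself. Replicates of a pair always differed by more than their counting error. Alternatives were DESeq2 1.42.0, limma 3.58.1 on the log2 TPM values, other scalings and filters, a replicate block, a threshold of 0.01, a joint fit of 15 libraries, and fits that lacked 1 library. Genes were joined by symbol to GENCODE 29 for 19113 of 19712 genes.

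The genes named by rule were the 10 highest and 10 lowest log2 fold changes among called genes. They averaged 5 CPM or more and had no overlap between the groups. For the line difference, 5 each way were named among genes called there and in long washout against DTPs, averaging 5 CPM or more. EGFR, all ERK output genes, and of each list the first 3 and the largest called rise and fall were named as well. Members of lists with 5 or fewer calls, CCNE1, CCNE2, FANCI, CDKN1B, SPRY4 and others named beside them were added after their values were seen. Results of some single genes are left out of the text. The members and the lists were chosen with earlier results of these data known. Python 3.11.15, numpy 2.4.6, pandas 2.3.3 and matplotlib 3.10.9 made tables and figures.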

Additional observations from a re-analysis of the deposited data

Results flagged for a closer look

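The washout effect differed between HCC2935 and the mean of the other 3 lines, by a test of the difference itself, for 78 genes. The naming rule took only genes that were also called in long washout against DTPs in HCC2935. A change in this line was therefore part of the choice. Those named by rule were PLAT (a difference of 2.40 on the log2 scale), CD68 (1.94), HAS3 (1.92), ESPL1 (1.85) and S100A2, a calcium-binding protein of basal epithelium (1.71), with the more positive effect in HCC2935. On the negative side were PCDHAC2 (-2.44), DGCR6 (-1.81), SLC43A2 (-1.58), the placental alkaline phosphatase ALPP (-1.47) and the small GTPase RAB15 (-1.35). In HCC2935, S100A2 read 12.6, 12.4 and 16.6 CPM in the DTP libraries and 32.03, 32.4 and 57.9 CPM after long washout. DGCR6 read 53.1, 59.3 and 45.5 CPM in the DTP libraries and 18.5, 20.7 and 17.1 CPM after long washout. ALPP read 142, 164 and 149 CPM in the DTP libraries and 62.5, 47.3 and 44.3 CPM after long washout. RAB15 read 398, 416 and 382 CPM in the DTP libraries and 216, 173 and 133 CPM after long washout. DGCR6 and ALPP have close copies (DGCR6L, ALPG) with which reads could be shared. The washout lasted 10 days here and 7, 4 or 3 days in the other lines, so line and time cannot be told apart.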

How the results depend on the processing

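The 6 libraries held 20.8 to 25.6 M estimated counts, and replicates differed by more than counting error in every pair. The called direction of the counts in long washout against DTPs (745 genes) was also found under RLE or library size scaling, without a filter, with 10 counts or more in each library, with totals thinned to the smallest and in limma, with 581 to 892 genes. DESeq2 called 1697, a fit of all 15 libraries 1758, the replicate block 38, the threshold of 0.01 9 and leaving out 1 library 17 to 1837. The main fit had 432 rises and 313 falls. Falls outnumbered rises in the replicate block (15 higher, 23 lower) and without long washout replicate 3 (5 higher, 12 lower). Against short washout (150 genes) DESeq2 called 711, the threshold of 0.01 9 and leave-one-out fits 1 to 971. Against DMSO (5663 genes) the threshold of 0.01 left 3396 and leave-one-out fits 4306 to 5230. For the line difference (78 genes) DESeq2 called 369, H1975 alone as the reference 29, HCC827 alone 1, PC9 alone 14, the replicate block 5, the threshold of 0.01 16 and leave-one-out fits 5 to 257.

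The block left 1 of 23 replication, 0 of 24 mitotic, 0 of 9 repair and 0 of 5 interferon-stimulated genes called higher (29, 30, 13 and 12 at an unadjusted p under 0.05), and the threshold of 0.01 left 0 in each. Leave-one-out fits gave 0 to 26, 0 to 30, 0 to 10 and 0 to 8. DESeq2 called 9 interferon-stimulated genes and limma 3. Of the 61 called genes named by rule, DESeq2 kept 61, the 15-library fit 59, limma 51, the block 11 and the threshold of 0.01 4, with no change of sign. Same-numbered libraries of long washout and DTPs correlated in their deviations at -0.242, -0.332 and 0.252, and replicates 1 and 2 correlated best with the other's number, so the numbers were not taken as pairs. The causes of the lost calls were not tested.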
